A study of Homo sapiens with 12 samples.

Results

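WNT11 and 9 genes that the Wnt pathway is known to switch on were followed in 2 human hepatocellular carcinoma lines that had become resistant to lenvatinib. The genes are WNT11, DKK1, NOTUM, LEF1, AXIN2, LGR5, ZNRF3, RNF43, NKD1 and TCF7, taken by name from both tables, and they are 10 of the 12365 gene symbols listed in either. RNA-seq libraries came from lenvatinib-resistant Hep3B, parental Hep3B, lenvatinib-resistant Huh7 and parental Huh7, with 3 libraries per group and 12 in all. Both are established liver tumour lines, and lenvatinib is a kinase inhibitor given by mouth that blocks the VEGF receptors together with FGF receptors and a few related kinases. All 4 groups were grown in DMEM with fetal bovine serum. The labels name DMSO or lenvatinib as treatment without assigning either to a group, so the presence of drug at harvest is not known here, nor whether a resistant line is 1 clone. The labels do not say whether the 3 libraries of a group came from separate cultures, so the p-values reflect how far these libraries differ from each other, which could be technical spread. In bulk RNA, fewer cells carrying a transcript and less transcript per cell cannot be told apart.

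Wnt proteins are secreted ligands that bind Frizzled receptors and the co-receptors LRP5 and LRP6. In the canonical branch this stops the destruction complex of AXIN, APC and GSK3 from degrading beta-catenin, which then enters the nucleus and works with TCF and LEF factors on target genes. Many of those targets are brakes on the same pathway, so their transcripts are widely read as its output, and in the liver this output marks hepatocytes around the central vein. WNT11 is best known for the other branch, which acts on planar cell polarity and calcium without beta-catenin, although it can also act through beta-catenin in some settings. Huh7 is not known to carry a mutation of beta-catenin or AXIN1, so the question put to it was which of these outputs move in the resistant cells.

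The Hep3B table lists 8 of the 10 genes and the Huh7 table lists 7, with 5 in both. LEF1 and LGR5 are not listed for Hep3B, and WNT11, RNF43 and NKD1 are not listed for Huh7. Levels are scaled reads, meaning reads recovered from the deposited values and multiplied by the deposited factor of the library. Listed reads per library ran from 6184929 to 6884468 in resistant Hep3B and from 6363935 to 7475184 in parental Hep3B. They ran from 11480608 to 11800771 in resistant Huh7 and from 12029528 to 14174202 in parental Huh7. A Hep3B entry counts 1 RefSeq transcript, so its reads can be a part of the gene's. A Huh7 entry counts a gene, but the Huh7 table is a selection, since its largest deposited adjusted p is 0.0499. Every Huh7 gene tested therefore passes, and for Huh7 the size and direction of a change carry the information. The Huh7 adjusted p-values below were computed within that selection, so they do not give a false discovery rate. Of 18 hepatocyte markers 9 are listed for Hep3B, where 8 fell and 1 rose, beside 21.9% of all transcripts lower and 27.6% higher. The summed level of these markers was 176977 to 181679 in resistant Hep3B, against 370521 to 378082 in parental Hep3B. For Huh7 14 of the 18 are listed, 6 higher and 8 lower, where 48% of all genes rose and 52% fell. Their sum was 662462 to 687948 in resistant cells and 646332 to 681961 in parental cells. Among them ALB, the albumin gene, stood at 112734 in resistant and 208255 in parental Hep3B, and AFP, the alpha-fetoprotein gene, at 318702 in resistant and 239517 in parental Huh7. AFP is a large part of the Huh7 sum, so that sum does not show how the other markers moved. The median log2 fold change of the 14 Huh7 markers was -0.16, beside -0.19 for all genes. Of 10 fibroblast markers 4 are listed for Hep3B (sum 2224 to 2501 in resistant, 616 to 693 in parental) and 3 for Huh7 (884 to 888 in resistant, 4161 to 4350 in parental). Endothelial markers are listed for 3 of 10 in each line, with a sum of 82.6 to 87.6 in resistant and 42.8 to 60.4 in parental Hep3B, and of 236 to 255 in resistant and 133 to 171 in parental Huh7. Leukocyte markers are listed for 2 of 10 in each line, with a sum of 108 to 121 in resistant and 438 to 520 in parental Hep3B, and of 5280 to 5460 in resistant and 6456 to 6674 in parental Huh7, most of it LYZ. Cholangiocyte markers are listed for 5 of 7 in Hep3B, with a sum of 19291 to 19536 in resistant and 23466 to 24138 in parental cells, and for 3 of 7 in Huh7, with 9200 to 9377 in resistant and 10210 to 11286 in parental cells. The part of these marker changes in the results below was not tested.

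Promoter sequence was at hand for 4 of the 10 genes, from RefSeq on GRCh38.p14, and 3 are shown, chosen by their direction in these data. DKK1 moved down in both lines, in Huh7 by about the median of all genes, while LEF1 and TCF7 moved up in Huh7. Each sequence is the 250 bases before a start, 5′ to 3′ on the gene's own strand, with TCF/LEF core words in capitals. The words searched on both strands were CTTTGAA and CTTTGAT together with CTTTGTA and CTTTGTT, and no 2 matches overlap in these windows.
DKK1, chr10:52314031-52314280, plus strand: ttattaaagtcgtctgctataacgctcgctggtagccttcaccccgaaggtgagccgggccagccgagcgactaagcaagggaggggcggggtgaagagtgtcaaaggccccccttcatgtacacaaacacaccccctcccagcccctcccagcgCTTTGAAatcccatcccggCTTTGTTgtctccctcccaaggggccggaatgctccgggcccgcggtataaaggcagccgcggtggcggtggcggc
LEF1, chr4:108166302-108166551, minus strand: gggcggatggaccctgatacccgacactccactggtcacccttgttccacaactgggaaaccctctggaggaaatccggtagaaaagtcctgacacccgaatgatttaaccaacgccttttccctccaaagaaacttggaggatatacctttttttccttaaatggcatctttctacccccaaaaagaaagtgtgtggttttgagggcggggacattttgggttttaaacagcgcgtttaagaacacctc
TCF7, first start, chr5:134115363-134115612, plus strand: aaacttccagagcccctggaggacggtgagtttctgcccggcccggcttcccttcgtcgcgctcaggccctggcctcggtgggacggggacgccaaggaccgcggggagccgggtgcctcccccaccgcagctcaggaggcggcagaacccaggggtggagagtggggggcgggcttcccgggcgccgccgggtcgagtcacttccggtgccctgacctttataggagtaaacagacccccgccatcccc
TCF7, second start, chr5:134123368-134123617, plus strand: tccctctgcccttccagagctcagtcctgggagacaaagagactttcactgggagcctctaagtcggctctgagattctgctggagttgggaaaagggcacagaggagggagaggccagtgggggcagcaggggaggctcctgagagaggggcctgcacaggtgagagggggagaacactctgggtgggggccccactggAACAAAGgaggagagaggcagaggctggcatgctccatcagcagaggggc
The DKK1 window holds CTTTGAA from base -95 to -89 and CTTTGTT from -76 to -70, counted back from the start. The second TCF7 window holds AACAAAG, the reverse strand of CTTTGTT, from -50 to -44. The LEF1 window and the first TCF7 window hold none of the words. LEF1 has 4 RefSeq transcripts and TCF7 has 9, and any start of these genes other than those shown was not searched. Nor do the 2 windows of RNF43, the gene not shown, so 2 of 6 windows hold a word. For comparison, 12% of 35116 RefSeq promoter windows of this length hold at least 1 of them, CTTTGAA being in 3.8% and CTTTGTT in 4.5%.

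WNT11 went up in resistant Hep3B more than nearly any other transcript. Its entry (NM_004626) had 176, 156 and 182 scaled reads in resistant libraries 1 to 3, against 1.84, 1.10 and 1.98 in parental libraries 1 to 3. Every resistant library lies far above every parental one, and the groups do not overlap. The means were 171 ± 13.7 in resistant and 1.64 ± 0.476 in parental cells (SD, n = 3 each), a log2 fold change of 6.04 ± 0.31 (SE) with an adjusted p of 1.44e-12 by limma. This was the third largest rise among 8717 transcripts. The parental side rests on 5 reads in all, against 514 in resistant cells, so the ratio of 103 has a counting interval of 43.8 to 318 (95%, exact). The authors' deposited table gives a log2 fold change of 6.65 for it, and adding 5 instead of 1 before the logarithm gives 4.73.

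Other ligands had few reads in both lines. Of 19 Wnt ligands 6 are listed for Hep3B, of which 3 rose, none fell and 3 did not pass. Of all Hep3B transcripts 27.6% rose and 21.9% fell. WNT10A, a canonical ligand, averaged 50.0 ± 7.73 in resistant and 0.637 ± 0.553 in parental Hep3B (SD, n = 3 each), from 151 against 2 reads, a ratio of 75.6 with a counting interval of 20.6 to 630. WNT7B rose by 1.20 ± 0.33 on the log2 scale, with 27.1 ± 7.50 in resistant and 11.0 ± 0.880 in parental cells. In resistant Hep3B these ligands together came to 273 to 279 scaled reads per library, against 21.8 to 36.2 in parental cells, and WNT11 made up more than any other. For Huh7 2 ligands are listed, WNT5A and WNT5B, both known for signalling outside beta-catenin and both low. WNT5B averaged 17.6 ± 3.58 in resistant and 4.07 ± 1.83 in parental Huh7, and WNT5A 9.68 ± 4.24 in resistant and 1.67 ± 1.55 in parental Huh7.

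**Figure D1:**
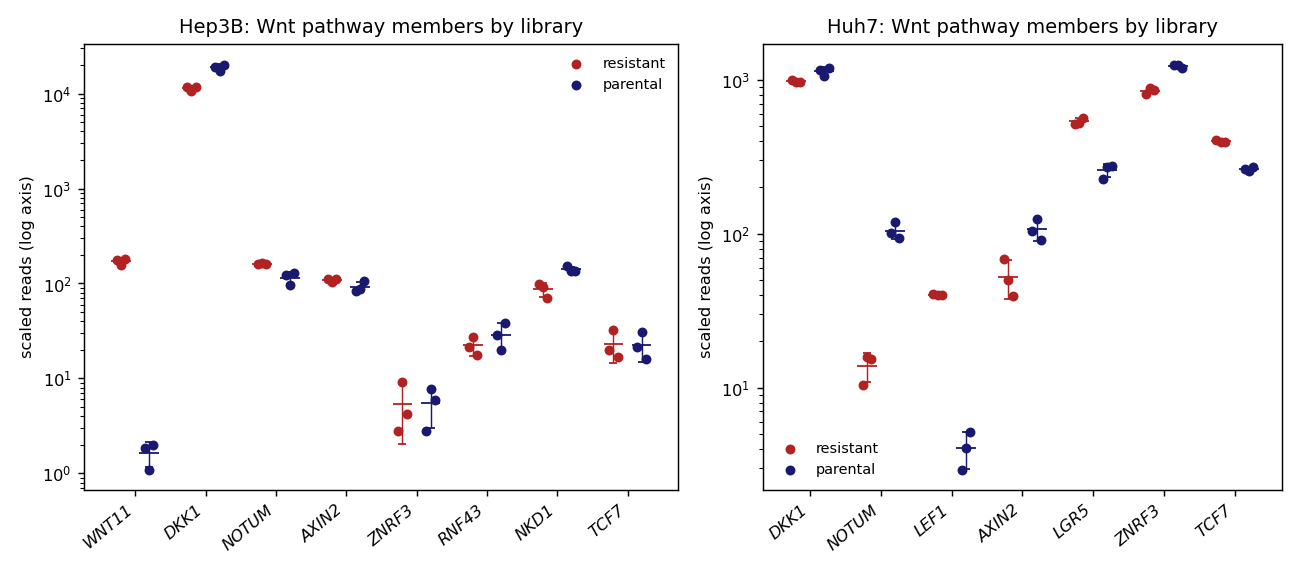
Scaled reads (log axis) of each listed gene in every library, Hep3B on the left and Huh7 on the right, with resistant libraries left of parental ones. Points are libraries, horizontal marks are means and error bars are SDs of 3 libraries. WNT11 lies between 156 and 182 in resistant Hep3B and below 2 in parental Hep3B, and LEF1 lies near 40 in resistant Huh7 and between 2.94 and 5.17 in parental Huh7.

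DKK1 fell in Hep3B, and in Huh7 it fell by about the median of all listed genes. DKK1 encodes a secreted inhibitor that binds LRP5 and LRP6 and keeps Wnt ligands from assembling their receptor. In Hep3B it had 11754, 10784 and 11789 scaled reads in resistant libraries, against 19298, 17269 and 20150 in parental libraries. The highest resistant library stayed below the lowest parental one. The means of 11442 ± 571 in resistant and 18906 ± 1480 in parental cells (SD, n = 3 each) gave a log2 fold change of -0.72 ± 0.05 with an adjusted p of 5.88e-09. In Huh7 the values were 997, 970 and 972 in resistant libraries, against 1149, 1051 and 1195 in parental libraries. The groups again do not overlap, but the gap is narrow beside the parental spread. The log2 fold change was -0.21 ± 0.07 with an adjusted p of 0.00589, which DESeq2 on the recovered reads did not call (-0.12, adjusted p = 0.108, in a range of 0.00247 to 0.108 over 17 alternatives). Over all Huh7 genes the median was -0.19, and -0.10 with DESeq2, so this change is near that of a typical listed gene.

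NOTUM moved in opposite directions in the 2 lines. NOTUM encodes a secreted enzyme that removes the lipid from Wnt proteins and so inactivates them, and it is itself a Wnt target. In Hep3B it had 161, 164 and 159 scaled reads in resistant libraries, against 122, 95.4 and 128 in parental libraries. The resistant libraries lie close together and above the parental ones. The log2 fold change was 0.49 ± 0.14 with an adjusted p of 0.00702. It dropped to 0.33 with median centring (adjusted p = 0.0548) and 0.34 with quantile normalization (adjusted p = 0.0537), neither of which passes, in a range of 0.00114 to 0.0548 over 17 alternatives. In Huh7 NOTUM had 10.4, 15.7 and 15.5 scaled reads in resistant libraries, against 101, 119 and 94.0 in parental libraries. All 3 resistant libraries lie far below the lowest parental one. The means were 13.9 ± 3.02 in resistant and 105 ± 13.0 in parental Huh7 (SD, n = 3 each), with a log2 fold change of -2.84 ± 0.24, rank 166 among falls of 7531 genes. The 40 resistant reads against 329 parental reads give a ratio of 0.133 with a counting interval of 0.0934 to 0.185.

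AXIN2 fell in Huh7 and did not pass in Hep3B. AXIN2 is a scaffold of the destruction complex and is often taken as the most general readout of canonical signalling. In Huh7 it had 68.5, 50.4 and 39.1 scaled reads in resistant libraries, against 104, 125 and 91.4 in parental libraries. Resistant values spread widely but stay below all parental ones. The means were 52.7 ± 14.8 in resistant and 107 ± 17.1 in parental Huh7 (SD, n = 3 each), a log2 fold change of -1.03 ± 0.20 with an adjusted p of 0.000125. In Hep3B the values were 113, 103 and 111 in resistant libraries, against 83.8, 87.7 and 106 in parental libraries. Resistant library 2 lies below parental library 3, so the groups overlap. The log2 fold change of 0.24 ± 0.16 has an adjusted p of 0.219 and a 95% interval from -0.09 to 0.56.

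NKD1, which binds Dishevelled and dampens the signal in the cytoplasm, fell in Hep3B. It had 99.5, 91.6 and 71.1 scaled reads in resistant libraries, against 152, 135 and 136 in parental libraries. The groups do not overlap, and resistant library 3 is the lowest of the 6. The means of 87.4 ± 14.7 in resistant and 141 ± 9.60 in parental cells (SD, n = 3 each) gave -0.69 ± 0.16 with an adjusted p of 0.00101.

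ZNRF3 and RNF43 are paired membrane ubiquitin ligases that remove Frizzled receptors from the cell surface. In Huh7 ZNRF3 had 813, 880 and 858 scaled reads in resistant libraries, against 1242, 1253 and 1195 in parental libraries. Every resistant library is lower, and both groups are tight. The means were 850 ± 34.3 in resistant and 1230 ± 31.1 in parental Huh7 (SD, n = 3 each), a log2 fold change of -0.53 ± 0.06 with an adjusted p of 3.60e-07. In Hep3B the listed ZNRF3 entry, 1 of 2 RefSeq transcripts, held 16 reads in resistant and 16 in parental cells over 3 libraries each. Its log2 fold change of -0.06 ± 0.58 has a 95% interval from -1.28 to 1.16, so these few reads allow any change within that range. RNF43 in Hep3B, 1 of 7 RefSeq transcripts, had 21.6, 27.5 and 17.8 scaled reads in resistant libraries, against 28.5, 19.7 and 38.6 in parental libraries. The groups overlap, and the log2 fold change of -0.34 ± 0.31 did not pass (adjusted p = 0.391, 95% interval from -0.98 to 0.31).

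LGR5, a receptor for R-spondins that protects Frizzled from those ligases and marks stem cells in several tissues, rose in Huh7. It had 518, 524 and 568 scaled reads in resistant libraries, against 228, 270 and 274 in parental libraries. The lowest resistant library is well above the highest parental one. The means were 536 ± 27.1 in resistant and 257 ± 25.4 in parental Huh7 (SD, n = 3 each), a log2 fold change of 1.06 ± 0.09 with an adjusted p of 7.24e-09. The listed receptor of the same family in Hep3B, LGR4, fell by 1.04 ± 0.05 on the log2 scale, with 1578 ± 35.8 in resistant and 3253 ± 67.6 in parental cells.

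The nuclear factors LEF1 and TCF7 both rose in Huh7. Both bind the TCF core words shown above and recruit beta-catenin to target genes, and in many tissues they are targets themselves. LEF1 had 40.5, 39.9 and 40.2 scaled reads in resistant Huh7 libraries, against 2.94, 4.07 and 5.17 in parental libraries. The resistant libraries are nearly alike, at 38 or 39 reads each, and all lie far above the parental ones, which hold 13 reads together. The log2 fold change was 3.05 ± 0.33, with an adjusted p of 8.29e-08 and rank 86 among rises of 7531 genes. The ratio of reads was 9.78 with a counting interval of 5.50 to 18.9. The antisense gene LEF1-AS1 overlaps LEF1 and is not listed, and the strand setting of the counting is not given in the sources used here, so reads of the pair cannot be told apart.

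TCF7 had 407, 392 and 396 scaled reads in resistant Huh7 libraries, against 262, 256 and 273 in parental libraries. The groups are tight and well apart. The means were 398 ± 7.90 in resistant and 264 ± 8.56 in parental Huh7 (SD, n = 3 each), a log2 fold change of 0.59 ± 0.09 with an adjusted p of 7.26e-06. VDAC1, a mitochondrial channel gene that overlaps TCF7 in the annotation, was far higher, at 5040 ± 78.0 in resistant and 3857 ± 78.9 in parental Huh7, and rose by 0.39 ± 0.05. Its part in the TCF7 value was not tested. In Hep3B the listed TCF7 entry, 1 of 9 RefSeq transcripts, had 19.7, 32.6 and 16.7 scaled reads in resistant libraries, against 21.2, 30.7 and 15.8 in parental libraries. Library 2 is the highest in each group, the groups overlap throughout, and the log2 fold change was 0.02 ± 0.33 (adjusted p = 0.967, 95% interval from -0.68 to 0.72).

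**Figure D2:**
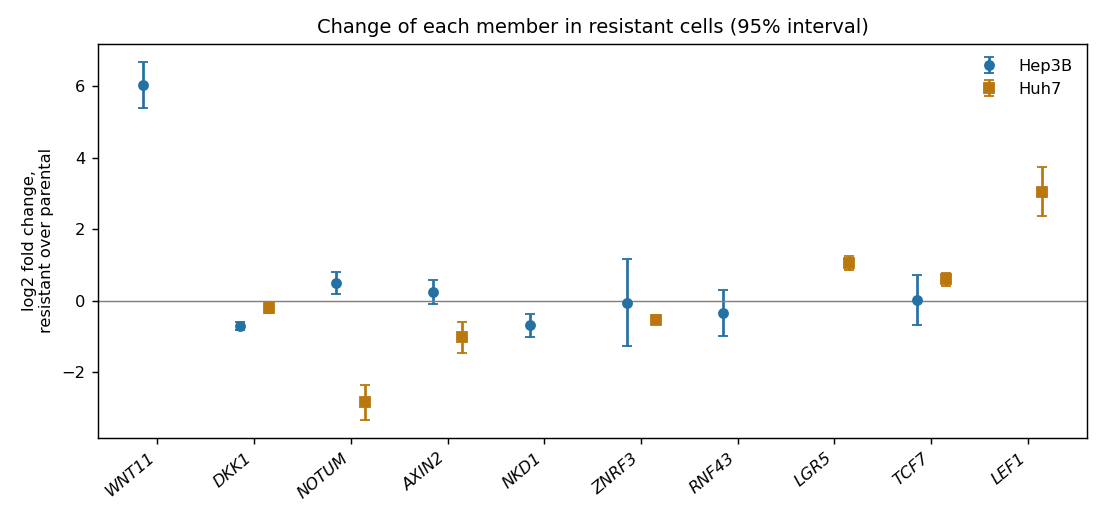
Log2 fold change, resistant over parental, of each listed gene in Hep3B (circles) and Huh7 (squares), with 95% intervals from limma. WNT11 stands at 6.04 in Hep3B and LEF1 at 3.05 in Huh7, while NOTUM lies at 0.49 in Hep3B and -2.84 in Huh7.

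Counted against the whole tables, the share that passed in Hep3B was near that of other transcripts. There 4 of 8 passed at an adjusted p under 0.05, where 49.5% of 8717 transcripts did. WNT11 and NOTUM were the 2 higher ones, beside 27.6% of all transcripts, and DKK1 and NKD1 the 2 lower ones, beside 21.9%. Of these WNT11 also rose by 2-fold or more, beside 10.7% of all, and none fell by that much, beside 4.71% (15.4% in either direction). The same 4 had groups that do not overlap, beside 56.3%. In Huh7 7 of 7 passed, as did 100% of the table, with LEF1, LGR5 and TCF7 higher (48% of all) and NOTUM, AXIN2, ZNRF3 and DKK1 lower (52% of all). Changes of 2-fold or more were found in 4 of these 7, LEF1 and LGR5 higher (12.7% of all) and NOTUM and AXIN2 lower (12.9% of all), beside 25.6% of the Huh7 genes in either direction. Their groups do not overlap in 7 of 7, beside 98.6%. No count here stands in for a test of the group.

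The 2 lines differed in 3 of the 5 genes listed in both, where 67.6% of 3885 shared symbols did. All shared symbols come from the Huh7 selection of changed genes, which can favour a difference between the lines. The difference of log2 fold changes, Hep3B minus Huh7, was 3.34 ± 0.28 for NOTUM (adjusted p = 1.32e-13) and 1.27 ± 0.26 for AXIN2 (adjusted p = 3.99e-05). For DKK1 it was -0.52 ± 0.08 (adjusted p = 1.81e-06), since the fall was larger in Hep3B. For TCF7 the difference of -0.57 ± 0.35 did not pass (adjusted p = 0.141, 95% interval from -1.27 to 0.13). It passed with median centring (-0.79, adjusted p = 0.0431), with quantile normalization (-0.87, adjusted p = 0.0269) and without resistant Hep3B library 2 (-0.84, adjusted p = 0.0495), in a range of 0.0269 to 0.441 over 22 alternatives. For ZNRF3 the difference of 0.48 ± 0.59 did not pass (adjusted p = 0.487, 95% interval from -0.71 to 1.66), with few Hep3B reads behind it.

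Of 240 genes in 10 lists that cover the pathway, 95 are listed for Hep3B and 112 for Huh7. In Hep3B 38 rose, 23 fell and 34 did not pass, so 64.2% passed beside 49.5% of all transcripts, and their median log2 fold change was 0.22 beside 0.07. With median centring 28 rose and 26 fell, and the median was 0.06 beside -0.09 for all transcripts. In Huh7 45 rose and 67 fell, with a median of -0.26 beside -0.19 for all genes. A gene can stand in more than 1 list, and the lists include the 10 genes above. The counts of each list below stand beside 27.6% of all Hep3B transcripts higher and 21.9% lower. In Huh7 they stand beside 48% of all genes higher and 52% lower.

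**Figure D3:**
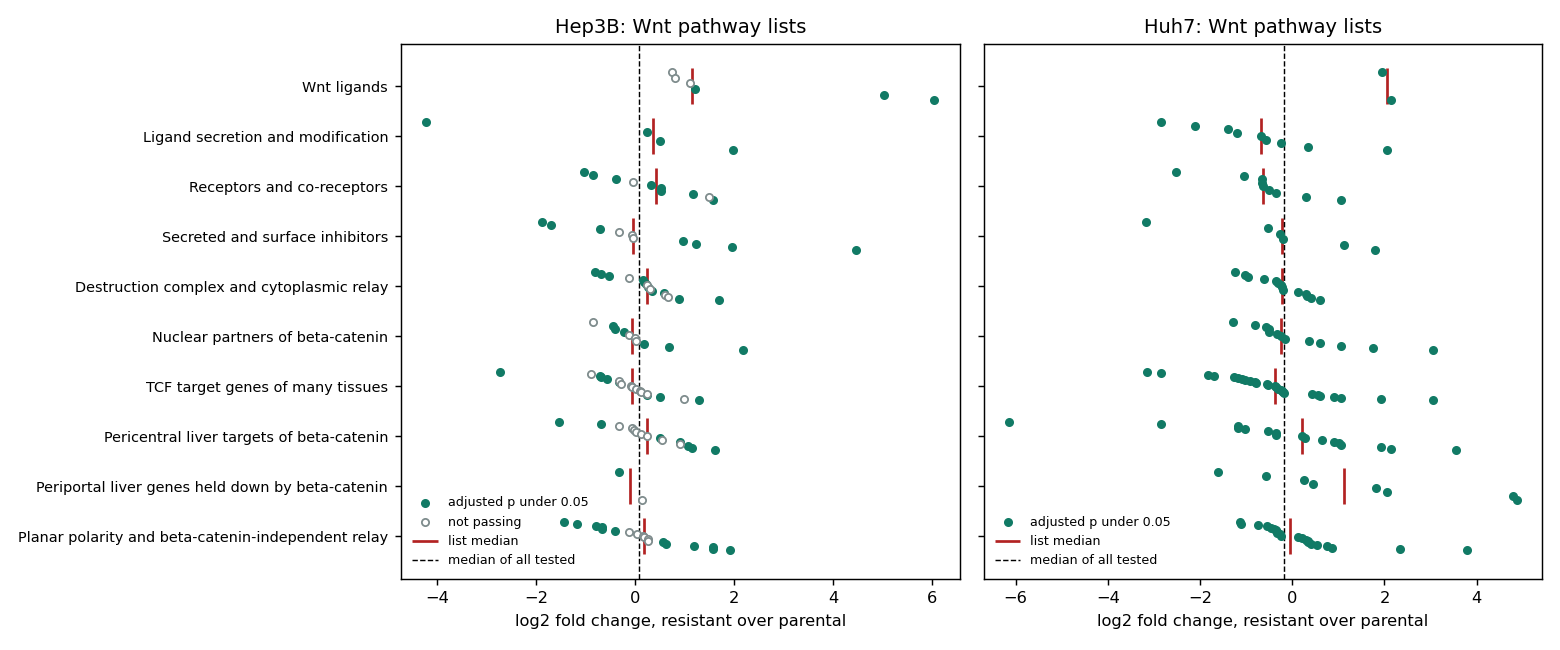
Log2 fold change, resistant over parental, of every listed gene of 10 Wnt pathway lists in Hep3B (left) and Huh7 (right). Filled points passed at an adjusted p under 0.05, open points did not, red bars are list medians and the dashed line is the median of all features tested (0.07 in Hep3B, -0.19 in Huh7).

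Among genes for the release and modification of ligands, 3 of 4 rose and 1 fell in Hep3B, a split that became 1 and 1 with median centring. GPC4, a cell-surface glypican, had 1605 ± 109 in resistant and 410 ± 17.6 in parental Hep3B, a rise of 1.96 ± 0.07. TRABD2B, a protease that cuts Wnt proteins, had 7.31 ± 2.85 in resistant and 148 ± 13.8 in parental Hep3B, a change of -4.22 ± 0.28. In Huh7 2 rose and 7 fell of 9, where 52% of all genes fell, with a median of -0.67 beside -0.19 for all genes. GPC4 went the other way there, at 6.60 ± 3.23 in resistant and 29.9 ± 4.15 in parental Huh7 (-2.12 ± 0.37). PORCN, the enzyme that adds the lipid to Wnt proteins, also fell, by 1.39 on the log2 scale, while the 2 that rose were TRABD2A, a protease gene of the same family as TRABD2B (2.05 ± 0.33, with 47.7 ± 12.4 in resistant and 11.4 ± 5.60 in parental Huh7), and WLS, the carrier of Wnt proteins to the surface (0.35 ± 0.09).

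Among receptors and co-receptors, 5 rose, 3 fell and 2 did not pass of 10 in Hep3B, and the split was 3 and 3 with median centring. FZD2 had 929 ± 73.0 in resistant and 313 ± 9.37 in parental Hep3B (1.56 ± 0.08), and FZD1 409 ± 27.5 in resistant and 181 ± 2.41 in parental Hep3B (1.17 ± 0.10). The co-receptor LRP6 fell by 0.85 ± 0.06. In Huh7 2 rose and 7 fell of 9, where 52% of all genes fell, with a median of -0.63 beside -0.19 for all genes. FZD2 fell there (-1.06 ± 0.23), as did FZD8 (-2.53 ± 0.38, 4.85 ± 1.57 in resistant and 34.0 ± 13.9 in parental cells) and the co-receptor LRP5, by 0.66 on the log2 scale. LGR5 and FZD6 (0.30 ± 0.10) were the 2 that rose.

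Among secreted and surface inhibitors, 4 rose, 3 fell and 3 did not pass of 10 in Hep3B. SFRP4, a decoy that binds Wnt proteins, had 44.2 ± 4.12 in resistant and 1.43 ± 1.69 in parental Hep3B (4.46 ± 0.51, from 4 parental reads). SFRP5 rose as well (1.96 ± 0.24), and SOSTDC1, which blocks LRP6, fell (-1.70 ± 0.18). In Huh7 2 rose and 4 fell of 6, KREMEN1, a receptor for DKK proteins, by 1.11 ± 0.09 and CER1 by -3.17 ± 0.35. SFRP4 rose in Huh7 too, with 15.9 ± 3.30 in resistant and 3.81 ± 0.324 in parental cells.

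Of the destruction complex and its relay, in Hep3B 8 rose, 3 fell and 5 did not pass of 16, with 4 and 3 under median centring, and those named by the rule were APC2 (0.88 ± 0.09), the AXIN-degrading tankyrase TNKS2 (0.59 ± 0.06), PPP2R5A (-0.82 ± 0.12) and NKD1. CXXC4, with few reads, rose more, by 1.69 on the log2 scale, with a mean of 10.4 in resistant and 3.14 in parental Hep3B. In Huh7 5 rose and 9 fell of 14, among them CXXC5, an inhibitor that binds Dishevelled (-1.23 ± 0.06), and the kinase GSK3A, by -0.95. DACT2 rose by 0.60 ± 0.09 and TNKS by 0.41 ± 0.06 in Huh7. Among nuclear partners of beta-catenin 3 rose, 3 fell and 4 did not pass of 10 in Hep3B, with PYGO1 (2.17 ± 0.20) and TCF7L1 (0.69 ± 0.06) higher and EP300 (-0.45 ± 0.10) and BCL9 (-0.41 ± 0.06) lower. In Huh7 5 rose and 8 fell of 13. The co-activator gene BCL9L fell (-1.30 ± 0.07), as did TLE5 of the Groucho family (-0.81 ± 0.08), while KLF4 rose (1.75 ± 0.12).

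Target genes known from many tissues moved in both directions in each line, with more lower than higher. The pericentral targets, given below, did not share that excess of falls. Of 18 targets known from many tissues, 3 rose, 5 fell and 10 did not pass in Hep3B, with a median of -0.07 beside 0.07 for all transcripts. Of all Hep3B transcripts 21.9% fell, so the count of 5 is not far from that share. With median centring 1 rose and 6 fell (median -0.23, beside -0.09 for all), and with quantile normalization 3 rose and 6 fell (median -0.32). JUN had 5503 ± 165 in resistant and 2239 ± 35.6 in parental Hep3B (1.30 ± 0.05). CCND1, the cyclin D1 gene, had 595 ± 51.7 in resistant and 3938 ± 248 in parental Hep3B (-2.73 ± 0.07). MYC fell by 0.57 on the log2 scale, and SP5, a direct target in many cell types, did not pass (0.12, adjusted p = 0.69). Of 27 in Huh7, 7 rose and 20 fell, where 52% of all genes fell, with a median of -0.39 beside -0.19, and DESeq2 called 7 and 17. CCND1 fell in Huh7 as well, to 4660 ± 66.0 in resistant cells, against 11207 ± 247 in parental cells. JUN and BMP4 fell, by 1.10 and by 1.71 on the log2 scale, whereas SP5 rose by 0.91, MYC by 0.55 and EPHB2 by 1.92 ± 0.15.

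Liver genes that beta-catenin arranges along the lobule were also split. Of 15 pericentral targets 5 rose, 2 fell and 8 did not pass in Hep3B, with 4 and 3 under median centring and 3 and 2 with quantile normalization, including LCAT (1.61 ± 0.17) and CYP27A1 (1.15 ± 0.07) higher and CPN1 (-1.54 ± 0.13) lower. GLUL, glutamine synthetase and the classic pericentral marker, did not pass in Hep3B, where its entry held a mean of 12.8 scaled reads in resistant and 13.1 in parental cells. In Huh7 9 rose and 8 fell of 17. GLUL had 7595 ± 152 in resistant and 6582 ± 110 in parental Huh7, a rise of 0.21 ± 0.05, and ODAM rose by 3.55 ± 0.32. HAMP, the gene of the iron hormone hepcidin, had 18.0 ± 7.69 in resistant and 1283 ± 177 in parental Huh7 (-6.14 ± 0.20). HAMP counts here only by its place on the list, and the part of beta-catenin in its fall was not tested. Of 8 periportal genes, which beta-catenin holds down in liver, 6 rose and 2 fell in Huh7, where 48% of all genes rose. OTC, a urea cycle enzyme, had 316 ± 30.7 in resistant and 10.5 ± 1.81 in parental Huh7 (4.79 ± 0.19). PIGR had 105 reads in resistant and 1 in parental Huh7, a ratio of 115 with a counting interval of 20.2 to 4586. The 2 that fell were PCK1, the gluconeogenic enzyme gene (-1.60 ± 0.40, with 6.90 ± 4.73 in resistant and 21.0 ± 5.70 in parental Huh7), and HAL, of histidine breakdown (-0.57 ± 0.10). In Hep3B 2 periportal genes are listed, of which SOX9 fell (-0.33 ± 0.05), and with quantile normalization 1 rose and 1 fell.

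**Figure D4:**
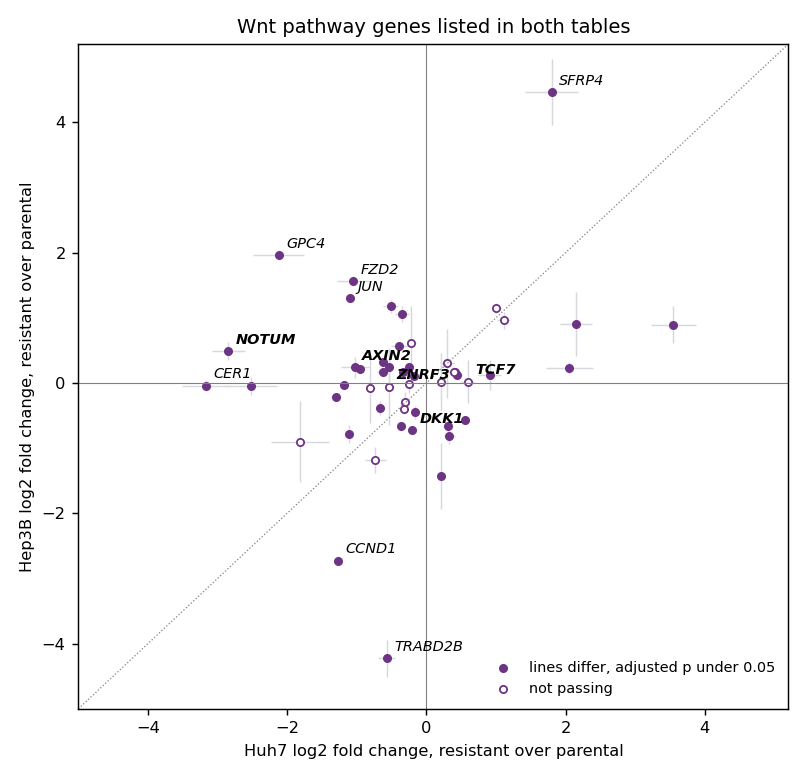
Log2 fold change, resistant over parental, in Hep3B (vertical axis) against Huh7 (horizontal axis) for the 51 genes of the lists named in both tables, with standard errors. Filled points are the 37 that differed between the lines at an adjusted p under 0.05, the dotted diagonal marks equal change, and NOTUM, GPC4, FZD2 and JUN lie above 0 for Hep3B and below 0 for Huh7.

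Over the 51 list genes named in both tables, 37 differed between the lines, 72.5% beside 67.6% of all shared symbols, all from the Huh7 selection. JUN differed by 2.39 ± 0.07 (Hep3B minus Huh7), GPC4 by 4.09 ± 0.37, FZD2 by 2.62 ± 0.25 and MYC by -1.12 ± 0.08. CYP27A1 and KREMEN1 rose in both, with differences of 0.14 ± 0.10 and -0.15 ± 0.16 that did not pass.

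The order of levels per kilobase, with lengths from GENCODE v29, changed with resistance. The length was that of the paired transcript in Hep3B and of all exons of the gene merged in Huh7. In resistant Hep3B DKK1 led at 6392 ± 319 scaled reads per kilobase, followed by WNT11 at 88.7 ± 7.08, NOTUM at 69.2 ± 1.08, AXIN2 at 25.5 ± 1.23, TCF7 at 7.56 ± 2.77, RNF43 at 4.04 ± 0.887 and ZNRF3 at 0.786 ± 0.487. In parental Hep3B DKK1 led at 10562 ± 827, followed by NOTUM at 49.5 ± 7.46, AXIN2 at 21.7 ± 2.78, TCF7 at 7.41 ± 2.47 and RNF43 at 5.25 ± 1.71, with WNT11 at 0.850 ± 0.246 and ZNRF3 at 0.797 ± 0.364. So WNT11 stood second of these genes in resistant cells and beside ZNRF3 in parental cells, where the 2 do not differ beyond their spread, nor do TCF7 and RNF43. NKD1 is left out because the paired GENCODE transcript is far longer than the others. In resistant Huh7 the order was DKK1 at 444 ± 6.86, ZNRF3 at 122 ± 4.92, LGR5 at 102 ± 5.16, TCF7 at 39.6 ± 0.785, AXIN2 at 10.1 ± 2.83, LEF1 at 7.50 ± 0.0541 and NOTUM at 4.59 ± 1.0. In parental Huh7 it was DKK1 at 513 ± 33.5, ZNRF3 at 177 ± 4.47, LGR5 at 49.0 ± 4.84, NOTUM at 34.7 ± 4.30, TCF7 at 26.2 ± 0.851, AXIN2 at 20.4 ± 3.27 and LEF1 at 0.758 ± 0.209. NOTUM thus stood last in resistant Huh7 and above TCF7 and AXIN2 in parental Huh7, and AXIN2 and LEF1 in resistant Huh7 do not differ beyond their spread. TCF7 was taken at 10063 bases in Huh7, against 3045 in Hep3B, so its place below NOTUM in parental Huh7 depends on the length used.

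The profiles most like that of WNT11 over the 6 Hep3B libraries were those of LOXL2, DIO3, COL1A1, EMP2 and RTL1, at distances of 1.02 to 1.33. The distance is Euclidean, on log2 levels set to 0 at the parental mean. It therefore mostly picks genes with a change of similar size, and shared regulation was not tested. COL1A1, which is also on the fibroblast marker list, had 1937 ± 177 in resistant and 24.9 ± 7.23 in parental Hep3B (6.26 ± 0.16). LOXL2, a collagen cross-linking enzyme, had 777 ± 42.3 in resistant and 11.8 ± 4.05 in parental Hep3B (5.96 ± 0.19). Of the other fibroblast markers listed for Hep3B, COL1A2 rose by 2.03 on the log2 scale, while LUM and PDGFRB fell by 2.38 and 2.09. The gene listed next to WNT11 on its chromosome, UVRAG, changed by 0.36 ± 0.11 (287 ± 30.8 in resistant and 224 ± 21.0 in parental Hep3B). For LEF1 in Huh7 the nearest were SMARCA2, GCNT1, MYEF2, RBP2 and TFEC, at distances of 0.26 to 0.47. SMARCA2, an ATPase of the SWI/SNF complex, had 307 ± 26.3 in resistant and 34.4 ± 8.83 in parental Huh7 (3.15 ± 0.18).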

How the data were processed

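The 10 genes and all lists were chosen with earlier results of these data known. The authors deposited 1 table per line, with GRCh37 as the build per the submitters' processing notes. Of the steps before, the aligner, counting tool, strand setting and annotation were not given in the sources used here. For Hep3B the deposited signal values equal 2 times the square root of a library factor times (reads + 0.375), per RefSeq transcript. For Huh7 the deposited signal is the read number of each Ensembl gene after division by a single factor for the library. Both forms were found from the values, and undoing them gave whole reads within 0.05 for 100% of values. The deposited tables also hold the authors' log2 fold change and FDR-adjusted p-value, whose tool is also not stated there. One Hep3B entry without a name, 6.29e-05 to 0.000171 percent of a library's reads, was left out. Listed reads per library are given in the report and cover listed genes alone.

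Within each line limma 3.58.1 (trend, robust, R 4.3.3) was run two-sided on log2(scaled reads + 1), a scale that understates changes of genes with few reads. An entry was tested where 3 or more libraries reached 1 scaled read, 8717 in Hep3B and 7531 in Huh7. Adjustment was by Benjamini-Hochberg over the whole table, with a threshold of 0.05. Lines were compared by dividing the difference of their log2 fold changes by its standard error, over 3885 shared symbols. The fit was also run on simulated data, with far fewer changed genes than here and a common level of extra spread. That setting is unlike these tables, so the run does not vouch for the fit on them. Alternatives were edgeR 4.0.16 (quasi-likelihood, TMM) and DESeq2 1.42.0 on recovered reads, the authors' p, limma without trend, pseudocounts of 0.5 and 5, no filter or at least 10, median centring, quantile normalization, a replicate block and each library left out. Counting intervals are exact (95%) and cover counting error only.

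Genes named are the 10, the 2 largest changes in each direction per list with a mean of at least 20 scaled reads in the higher group, the 5 profiles nearest to the most changed gene, and its neighbours. Of the genes this rule names, 1 is not reported here. WNT7B, WNT5A, WNT5B, PORCN, LRP5, CXXC4, GSK3A, SP5, MYC, GLUL, COL1A2, LUM, PDGFRB and VDAC1, the Huh7 values of SFRP4, JUN and CCND1, and the genes given for the difference between lines were chosen after their values were seen. Symbols were matched to RefSeq and GENCODE v29 tables.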

Additional observations from a re-analysis of the deposited data

Results flagged for a closer look

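The change with resistance differed between the lines for NOTUM, AXIN2 and DKK1, by a test of the difference of log2 fold changes (limma standard errors, Benjamini-Hochberg over 3885 symbols). NOTUM was higher in resistant Hep3B and lower in resistant Huh7, with a difference of 3.34 (Hep3B minus Huh7, 95% interval from 2.78 to 3.90). That difference had the same direction in 22 of 22 alternatives. The Hep3B rise of NOTUM alone did not pass with median centring (0.33) or quantile normalization (0.34). AXIN2 differed by 1.27 (0.75 to 1.79), where the Hep3B change did not pass a test of its own. DKK1 fell in both lines and differed by -0.52 (-0.69 to -0.35), with a Huh7 change near the median of all Huh7 genes. The Hep3B values count 1 RefSeq transcript and the Huh7 values a whole gene, and the part of that in these differences was not tested. Such a difference was found for 67.6% of all shared symbols. All of those come from the Huh7 selection of changed genes, which can favour a difference. With 3 libraries per group, single libraries were not checked for standing apart.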

How the results depend on the processing

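The counts of genes that passed, among the 10 genes, over all lists together and over all features, stayed within 1.5 times their values in every alternative run. Under the scaling alternatives 3 single Hep3B lists did not: ligand secretion had 1 higher and 1 lower with median centring and quantile normalization, against 3 and 1, the destruction complex 4 and 3 with median centring, against 8 and 3, and the periportal list 1 and 1 with quantile normalization, against 0 and 1. Leaving out each library in turn gave 4 to 4 of the 10 genes called in Hep3B and 7 to 7 in Huh7, 53 to 58 list genes in Hep3B and 110 to 112 in Huh7, and 3 to 4 genes that differed between lines. Over all features it gave 2038 to 2279 higher and 1695 to 1847 lower in Hep3B, and 3499 to 3601 higher and 3799 to 3882 lower in Huh7. The Huh7 counts follow largely from the selection of genes in that table. Among single genes, Hep3B NOTUM no longer passed with median centring (0.33) or quantile normalization (0.34), Huh7 DKK1 no longer passed with DESeq2 (-0.12), and the TCF7 difference between lines passed in 3 of 22 alternatives (-0.79, -0.84 and -0.87). The cause was not tested. Median centring moved the median log2 fold change of all Hep3B transcripts to -0.09, against 0.07 as reported, and the share of calls that were higher to 39.2%, against 55.7%. DESeq2 gave 48.3% higher and edgeR 49.6%. With replicate number as a block 4881 Hep3B transcripts were called, against 4317 without it, and the block changed no call among the 10 genes. To look for pairing, the deviations of each library from its group mean were correlated across genes. For same-numbered libraries this gave 0.0349, 0.146 and 0.0595 in Hep3B and 0.00356, 0.0140 and 0.0672 in Huh7. The fit reported does not take the numbers to pair the libraries. By these deviations 5 of 6 libraries in Hep3B, the 3 resistant ones among them, and 4 of 6 in Huh7 correlated best with the library of their own number. Whether libraries of the same number were handled together is not known here. Depth limits WNT11 and WNT10A on the parental side in Hep3B, LEF1 on the parental side in Huh7, and ZNRF3 on both sides in Hep3B.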

Other observations

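The branch of the pathway that WNT11 is best known for, planar cell polarity and its relay, was split in both lines. Of 18 such genes listed for Hep3B 6 rose, 6 fell and 6 did not pass, with a median log2 fold change of 0.17 beside 0.07 for all transcripts. The cadherin gene CELSR3 had 1286 ± 104 scaled reads in resistant and 341 ± 32.5 in parental Hep3B, a rise of 1.91 ± 0.08 (SE, adjusted p = 1.41e-13). PRICKLE4 rose by 1.56 ± 0.20, while PRICKLE2, a core polarity gene, fell by 1.18 on the log2 scale, with 45.0 ± 7.03 in resistant and 104 ± 19.3 in parental Hep3B. Of 22 listed for Huh7 11 rose and 11 fell, with a median of -0.05 beside -0.19 for all genes. ANKRD6, which binds Dishevelled and takes part in polarity, had 174 ± 19.1 in resistant and 33.6 ± 4.80 in parental Huh7, a rise of 2.34 ± 0.17, and MAP3K7 rose by 0.87 ± 0.06, while DAAM2 changed by -1.14 ± 0.17. RHOU, a small GTPase gene that Wnt ligands can induce, fell in both lines, by 0.79 on the log2 scale in Hep3B and by 1.12 in Huh7. The difference of 0.33 ± 0.15 (Hep3B minus Huh7) had an adjusted p of 0.0439.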
